A study of Mus musculus with 12 samples.

Results

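The endoplasmic reticulum (ER) to Golgi transport machinery was described through 42 genes: the subunits of the COPI and COPII vesicle coats with their regulators, 3 p24 cargo adaptors, the Golgi SNAREs with their SM protein, and the golgins with related tethers. They were chosen by name, with no measured value in the rule, and 41 of the 42 had a named transcript cluster on the array, out of 19505 genes with one. Syntaxin 5 (Stx5a) had no cluster under its symbol and was not analysed here. Each of the 41 had 1 transcript cluster, and 35 of them lay above the background of the array on all 12 arrays, 5 on some and 1, Sec16b, on none.

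The cells were cultures of S100β-v-erbB/p53-/- TSC1 cells from mice of the FVB-NJ strain, in which the S100β promoter drives the v-erbB oncogene, an active relative of the epidermal growth factor receptor, and which lack p53. All 4 groups carry both changes, and the labels do not say what TSC1 stands for in the name or whether the cultures come from 1 clone. The groups were hypoxia with brefeldin A (BFA), hypoxia with the Rac inhibitor EHT-1864, hypoxia with the solvent DMSO, and normoxia with DMSO, each kept for 16 h and each measured on 3 arrays. EHT-1864 was given at 1 µM, while the labels give BFA as 1 µM in the protocol and as 0.1 µM in the series title, so its dose is not settled. Values are log2 signals, and "±" after a change gives the standard error of the fit.

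COPII carries new proteins from the ER: the GTPase SAR1, loaded by its exchange factor PREB, recruits the inner coat of SEC23 and SEC24 and then the outer cage of SEC13 and SEC31 at exit sites organised by SEC16 and TFG. COPI, recruited to the Golgi by ARF GTPases, returns escaped ER proteins and cycling receptors, and p24 proteins link cargo to both coats. Golgins and other tethers catch the vesicles, and SNAREs on vesicle and target membrane then fuse them. BFA locks ARF with its exchange factor in an inactive complex, so that COPI leaves the Golgi and Golgi proteins flow back into the ER. EHT-1864 binds Rac GTPases, which organise actin.

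Some properties of the arrays moved with the groups. The background, taken as the 95th percentile of the negative control probes, averaged 6.49 on the BFA arrays, 6.01 with EHT-1864, 5.61 in hypoxia with DMSO and 5.61 in normoxia. The hybridization controls averaged 10.93, 10.25, 9.76 and 9.85 in the same order. Below background lay on average 65.2%, 57.6%, 51.7% and 52.1% of the transcript clusters. The interquartile range of the log2 values averaged 3.55, 3.85, 4.26 and 4.14 in the same order, so the BFA arrays were compressed. Results are given below also with each array put on 1 common median and interquartile range. Of the markers of oligodendrocyte progenitors, 5 of 7 lay above background on all 12 arrays, and the mean level of the list ran from 6.99 to 7.09 with BFA, 8.48 to 8.71 with EHT-1864, 9.97 to 10.06 in hypoxia with DMSO and 9.98 to 10.07 in normoxia. All 5 neural stem and glioma markers were above background on all 12 arrays, with means of 9.42 to 9.66, 10.58 to 10.66, 10.66 to 10.82 and 10.65 to 10.79. The 5 microglial and 4 endothelial markers were below background on every array, as were Gfap, Aqp4 and Aldh1l1 of the 5 astrocyte markers. Of 5 neuronal markers 2 were above background on all arrays and 2 on none, and 4 of 5 fibroblast markers were below it on all. Detected markers of other types also moved. S100b, an astrocyte marker, ran from 7.76 to 8.19 with BFA, 9.30 to 9.55 with EHT-1864, 9.61 to 9.72 in hypoxia with DMSO and 9.60 to 9.61 in normoxia. Slc1a3, another, ran from 6.03 to 6.93, 7.01 to 7.28, 8.18 to 8.26 and 7.92 to 8.06 in the same order, and the neuronal Map2 from 7.33 to 7.52, 8.67 to 8.90, 9.22 to 9.46 and 9.18 to 9.23. Each of these 3 was lowest on the BFA arrays. Tubb3 and Col1a1, also above background on all 12 arrays, did not fall with BFA. The neuronal Tubb3 ran from 7.14 to 7.34, 7.27 to 7.58, 7.10 to 7.22 and 6.98 to 7.01 in the same order. The fibroblast marker Col1a1 ran from 6.38 to 6.76, 6.02 to 6.17, 5.75 to 5.86 and 5.92 to 6.27, and was highest with BFA. Cd44 ran from 7.94 to 8.29 with BFA, 10.12 to 10.26 with EHT-1864, 8.66 to 9.02 in hypoxia with DMSO and 8.75 to 8.93 in normoxia. Cd44 was thus highest with EHT-1864, while Sox2, Nes and Fabp7 were lower on every EHT-1864 array than on any hypoxia DMSO array. The part of these shifts in the results below was not tested beyond the scaling. In such bulk samples fewer cells of a type and less RNA per cell cannot be told apart.

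BFA raised most of the machinery. In hypoxia, 31 of the 41 genes were higher with BFA than with DMSO and 1 was lower, against 26.1% of all 22206 transcript clusters higher and 24.6% lower. Among the 10991 transcript clusters above background on at least 3 arrays, 17.5% were higher and 44.8% lower. The median change of the 41 genes was 0.73, against -0.28 for these 10991 and 0.11 for all transcript clusters. By class, 5 of 9 COPI genes rose (median 0.46), 10 of 14 COPII genes (0.71), 2 of 3 p24 adaptors (0.54), all 7 measured SNARE genes (0.97) and 7 of 8 golgins and tethers (0.91). The count of 31 includes Sec16b, which was below background on all arrays. After scaling to a common median and interquartile range, 38 genes were higher and the median change was 1.49, against 0.11 for all transcript clusters. Of all calls on that scale 62.1% were higher, against 51.5% as deposited. The scaling stretches the compressed BFA arrays about their median, which moves bright genes up, also those flat or lower as deposited. The 38 and the 1.49 are therefore not read as a stronger rise.

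**Figure D1:**
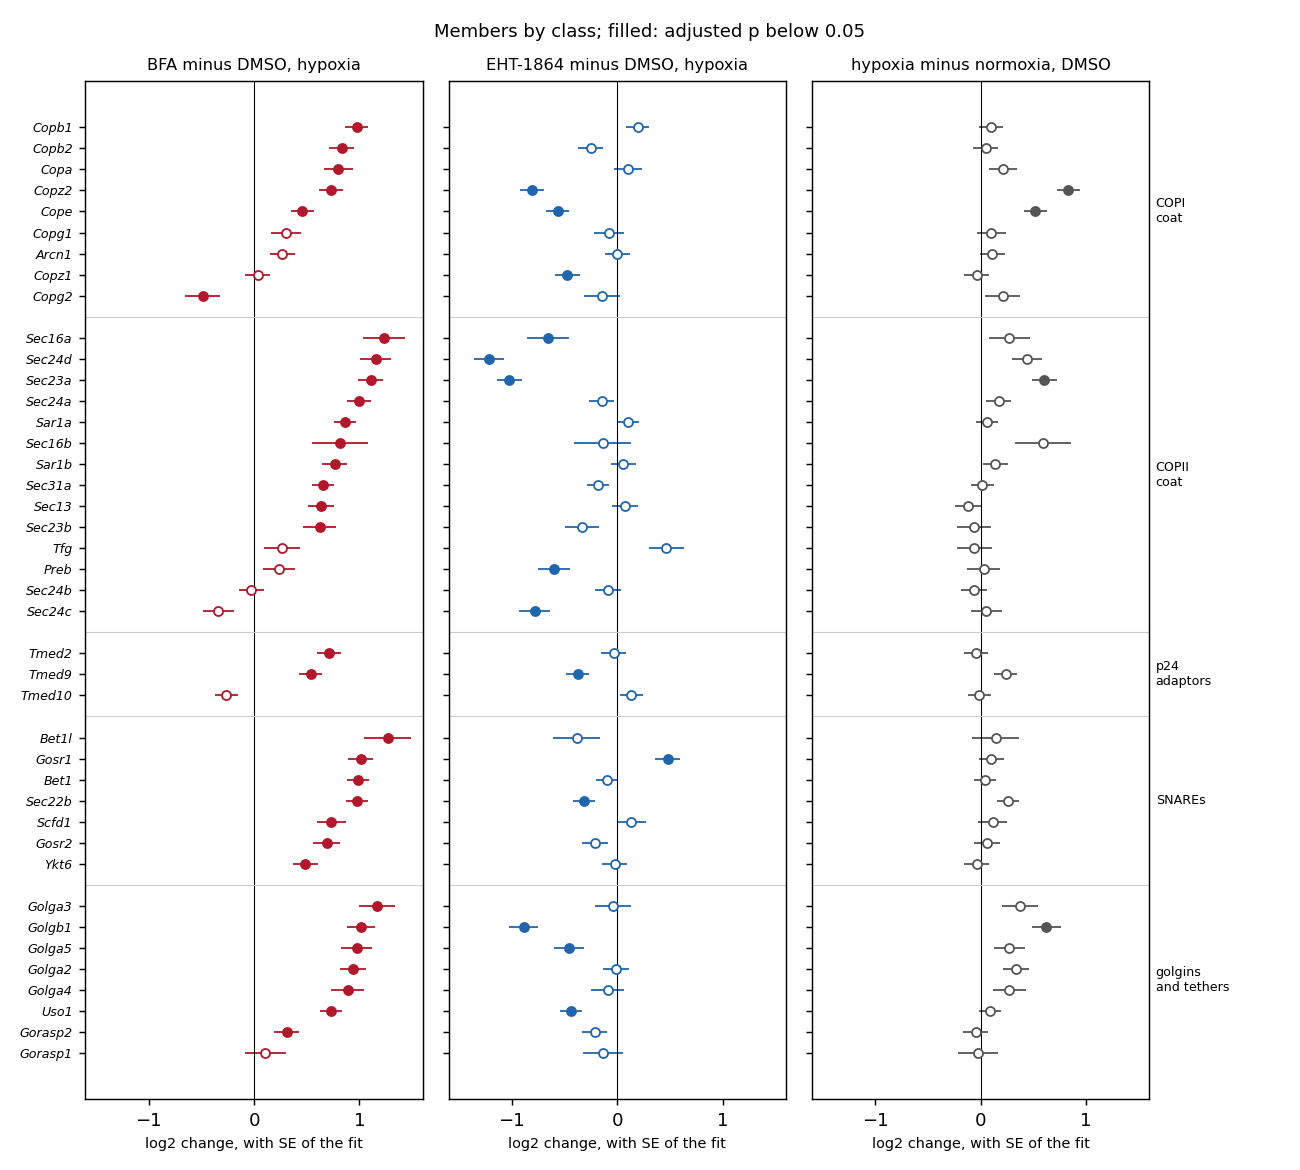
Log2 change of each measured gene, in classes from top to bottom, with the standard error of the fit (bars, 3 arrays per group), for BFA minus DMSO in hypoxia (left), EHT-1864 minus DMSO in hypoxia (middle) and hypoxia minus normoxia with DMSO (right). Filled points have an adjusted p below 0.05. With BFA 31 of 41 points are filled on the right of 0 and only Copg2 on the left, a call that is lost when the arrays are scaled to a common interquartile range. With EHT-1864 13 are filled on the left and Gosr1 on the right, and the same scaling turns that balance round.

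Among COPI subunits the rises with BFA were largest for the α, β and β′ subunits. Copb1, β-COP of the inner layer, read 10.29, 10.36 and 10.33 on the BFA arrays, 9.66, 9.47 and 9.51 with EHT-1864, 9.35, 9.46 and 9.25 in hypoxia with DMSO and 9.32, 9.20 and 9.24 in normoxia. Its BFA arrays all lay above every other array, 1.96-fold above hypoxia DMSO (0.97 ± 0.11, adjusted p = 1.19e-05). Copb2, β′-COP of the outer layer, read 10.54, 10.75 and 10.79 with BFA, 9.61, 9.75 and 9.46 with EHT-1864, 9.82, 9.88 and 9.88 in hypoxia with DMSO and 9.81, 9.84 and 9.78 in normoxia, a BFA change of 0.83 ± 0.12 (adjusted p = 8.14e-05). Copa, α-COP, which binds the retrieval signals of ER proteins together with β′-COP, read 10.06, 10.63 and 10.40 with BFA, 9.66, 9.70 and 9.64 with EHT-1864, 9.57, 9.59 and 9.54 in hypoxia with DMSO and 9.30, 9.41 and 9.35 in normoxia. Its change was 0.80 ± 0.14 (adjusted p = 0.000342), and again the BFA arrays did not overlap with the rest. Cope, ε-COP, which steadies the outer layer, also rose with BFA (0.46 ± 0.11, adjusted p = 0.00355). Arcn1, δ-COP, did not pass the test with BFA (0.27 ± 0.12, adjusted p = 0.078) or with EHT-1864 (-0.00 ± 0.12, adjusted p = 0.998).

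The γ and ζ subunits are each encoded by a pair of genes, and 1 of these 4 genes, Copz2, rose with BFA as deposited. That count did not hold on other scales. With BFA 8 of the 9 COPI genes were higher after interquartile scaling and 7 after a second quantile normalization. Copz2 read 9.88, 9.77 and 9.98 with BFA, 8.40, 8.26 and 8.35 with EHT-1864, 9.09, 9.27 and 9.09 in hypoxia with DMSO and 8.32, 8.36 and 8.26 in normoxia. The groups of Copz2 stand in 3 steps, BFA on top, hypoxia DMSO in the middle, and EHT-1864 with normoxia together at the bottom. Copz1 read 10.62, 10.93 and 10.99 with BFA, 10.33, 10.33 and 10.34 with EHT-1864, 10.82, 10.77 and 10.84 in hypoxia with DMSO and 10.87, 10.87 and 10.81 in normoxia, so that only the EHT-1864 arrays stood apart. BFA changed Copz2 by 0.73 ± 0.11 (adjusted p = 0.000157) and Copz1 by 0.03 ± 0.12 (adjusted p = 0.822). Copg1 read 9.38, 9.80 and 9.69 with BFA, 9.25, 9.40 and 9.08 with EHT-1864, 9.46, 9.18 and 9.32 in hypoxia with DMSO and 9.25, 9.24 and 9.16 in normoxia. Its BFA change missed the threshold (0.30 ± 0.14, adjusted p = 0.0863). Copg2 read 8.02, 8.75 and 8.68 with BFA, 8.78, 8.77 and 8.93 with EHT-1864, 8.89, 9.04 and 8.98 in hypoxia with DMSO and 8.73, 8.84 and 8.71 in normoxia. Copg2 was the only member called lower with BFA (-0.49 ± 0.17, adjusted p = 0.0273), and BFA array 1 lay well below the other BFA arrays. That call was lost without BFA array 1, DMSO array 2 or DMSO array 3 (adjusted p up to 0.079), and scaling to a common interquartile range turned the change to 0.18.

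**Figure D2:**
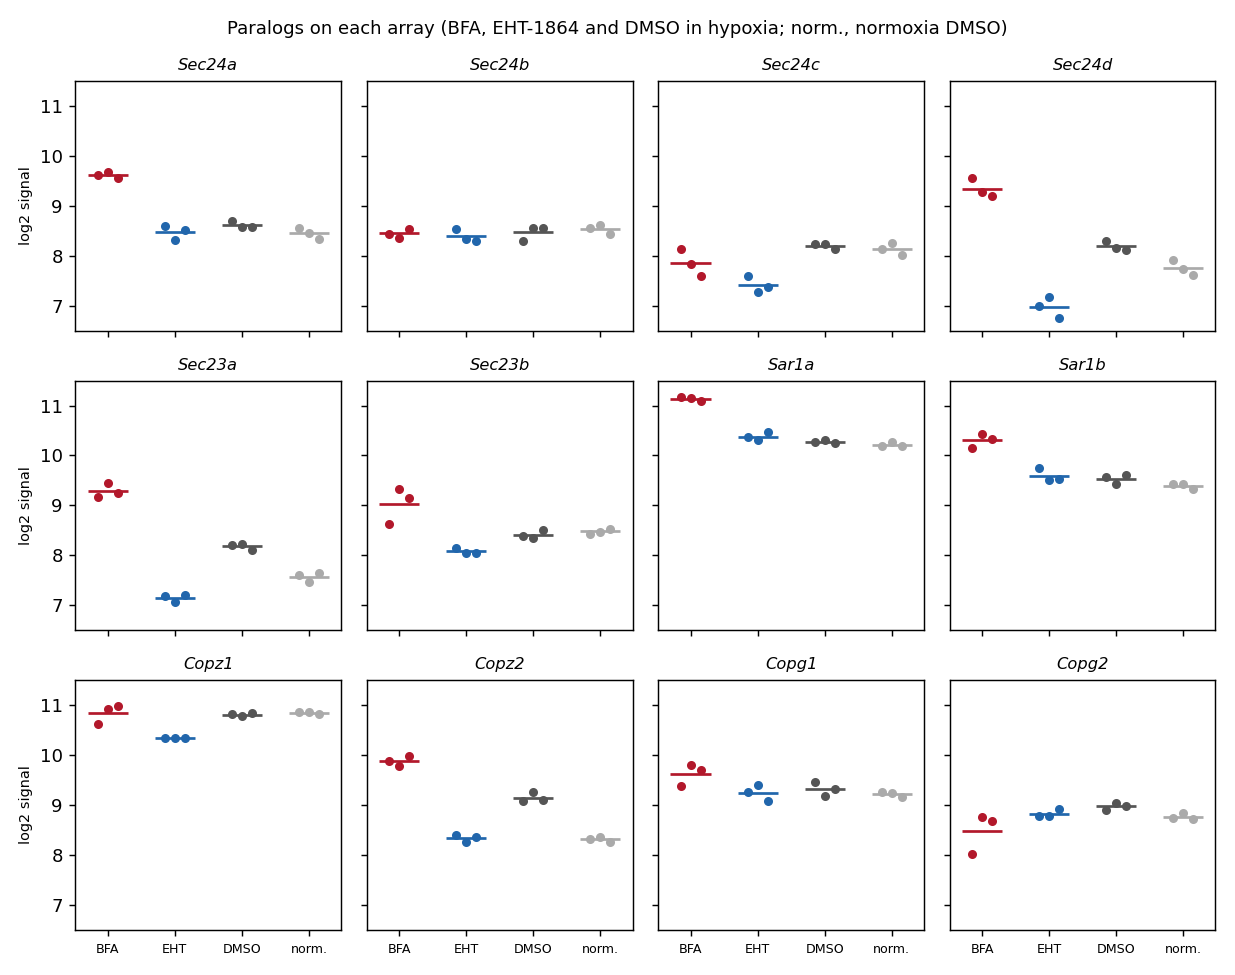
Log2 signal of 12 coat genes with a close relative on each of the 12 arrays (points) with the group mean (line), from left to right hypoxia BFA, hypoxia EHT-1864, hypoxia DMSO and normoxia DMSO. As deposited, Sec24a and Sec24d rise with BFA while Sec24b stays between 8.37 and 8.55 there, and the BFA change is 0.73 for Copz2 and 0.03 for Copz1.

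COPII genes that rose with BFA included the inner coat and the GTPase. Sec23a, the inner-coat subunit that activates GTP hydrolysis by SAR1, read 9.17, 9.45 and 9.24 with BFA, 7.18, 7.08 and 7.21 with EHT-1864, 8.20, 8.22 and 8.12 in hypoxia with DMSO and 7.62, 7.47 and 7.64 in normoxia. The 4 groups of Sec23a did not overlap, and BFA raised it 2.15-fold over hypoxia DMSO (1.11 ± 0.12, adjusted p = 6.22e-06). Its paralog Sec23b read 8.62, 9.33 and 9.16 with BFA, 8.15, 8.05 and 8.05 with EHT-1864, 8.39, 8.34 and 8.51 in hypoxia with DMSO and 8.43, 8.48 and 8.53 in normoxia, with a BFA change of 0.62 ± 0.16 (adjusted p = 0.00572). Sar1a read 11.16, 11.16 and 11.08 with BFA, 10.36, 10.30 and 10.47 with EHT-1864, 10.26, 10.31 and 10.25 in hypoxia with DMSO and 10.18, 10.28 and 10.18 in normoxia. Sar1b read 10.15, 10.42 and 10.33 with BFA, 9.75, 9.52 and 9.52 with EHT-1864, 9.57, 9.43 and 9.61 in hypoxia with DMSO and 9.42, 9.43 and 9.33 in normoxia. In both SAR1 genes the BFA arrays were the highest of the 12, with BFA changes of 0.86 ± 0.10 (adjusted p = 2.17e-05) for Sar1a and 0.76 ± 0.12 (adjusted p = 0.000188) for Sar1b. The cage genes Sec31a (0.66 ± 0.11, adjusted p = 0.000227) and Sec13 (0.64 ± 0.12, adjusted p = 0.001) rose as well. The exchange factor Preb read 9.96, 10.40 and 10.31 with BFA, 9.43, 9.41 and 9.32 with EHT-1864, 10.12, 9.84 and 10.003 in hypoxia with DMSO and 10.16, 10.03 and 9.68 in normoxia, and did not pass the test with BFA (0.24 ± 0.15, adjusted p = 0.212). Nor did Tfg (0.27 ± 0.17, adjusted p = 0.202).

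Of the 4 SEC24 genes, whose products select cargo, 2 rose with BFA as deposited. After interquartile scaling 13 of the 14 COPII genes were higher with BFA. Sec24d read 9.57, 9.28 and 9.20 with BFA, 6.995, 7.18 and 6.76 with EHT-1864, 8.30, 8.16 and 8.13 in hypoxia with DMSO and 7.92, 7.73 and 7.61 in normoxia. Sec24a read 9.62, 9.68 and 9.56 with BFA, 8.60, 8.32 and 8.52 with EHT-1864, 8.70, 8.59 and 8.58 in hypoxia with DMSO and 8.57, 8.46 and 8.33 in normoxia. Sec24d and Sec24a were each higher on every BFA array than on any other array, by 1.15 ± 0.15 (adjusted p = 3.21e-05) and 0.996 ± 0.12 (adjusted p = 1.8e-05) over hypoxia DMSO. Sec24b read 8.44, 8.37 and 8.55 with BFA, 8.53, 8.34 and 8.29 with EHT-1864, 8.31, 8.56 and 8.56 in hypoxia with DMSO and 8.56, 8.62 and 8.44 in normoxia. All 4 groups of Sec24b overlapped, and its BFA change was -0.02 ± 0.12 (adjusted p = 0.879), though 0.61 after scaling to a common interquartile range. Sec24c read 8.14, 7.84 and 7.60 with BFA, 7.59, 7.29 and 7.37 with EHT-1864, 8.23, 8.23 and 8.13 in hypoxia with DMSO and 8.14, 8.26 and 8.03 in normoxia, with a BFA change of -0.34 ± 0.15 that missed the threshold (adjusted p = 0.0697).

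Both exit-site scaffolds were dim. Sec16a read 7.28, 6.43 and 6.98 with BFA, 5.23, 4.81 and 4.98 with EHT-1864, 5.66, 5.77 and 5.56 in hypoxia with DMSO and 5.31, 5.24 and 5.62 in normoxia, and was above background on 3, 0, 2 and 0 arrays of these groups. It rose with BFA (1.23 ± 0.20, adjusted p = 0.000222). Sec16b read 4.84, 5.86 and 5.999 with BFA, 4.48, 4.70 and 4.66 with EHT-1864, 4.87, 4.28 and 5.11 in hypoxia with DMSO and 4.10, 4.28 and 4.11 in normoxia. Although Sec16b passed the test with BFA (adjusted p = 0.0224), no array was above background, so no fold is given, and the call was lost without BFA array 2, BFA array 3 or DMSO array 2 (adjusted p up to 0.102).

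Promoter windows of 38 of the 42 genes were found in the RefSeq table (build GRCm38.p6). Each ran from 250 bases before to 50 after the gene start used in that table. Arcn1, Tmed2, Golga4 and Golgb1 had no window there. Motifs were searched on both strands as exact letters. TGACGTGG, the core of the unfolded protein response element known to be bound by ATF6 and XBP1, was found in 7 of the 38 windows (18.42%), against 0.714% of all 27025 promoters of the table and 0.879% of the 15691 with a named transcript cluster. Of the 28 members with a window that were higher with BFA 6 held it, of the 9 that were not higher 0 held it, and of all 3824 genes higher with BFA 54 held it (1.41%). The seventh window was that of Stx5a. CCACG, which overlaps TGACGTGG on the opposite strand, was found in 31 of 38 windows (81.58%) against 35.48% of all promoters, in 22 of the 28 higher with BFA and in 8 of the 9 that were not. ACGTG, the letters of the hypoxia response element, which also overlap TGACGTGG, was found in 25 of 38 (65.79%) against 21.78%, and CCAAT in 17 of 38 (44.74%) against 41.06%. TGACGTCA, the cyclic AMP response element, was found in 2 of 38 (5.26%) against 2.03% of all promoters. TGACGCA was found in none of the 38 windows, against 2.42% of all promoters. No window held the ER stress response element searched as CCAAT and CCACG 9 bases apart, against 0.137% of all promoters. The median GC content was 56.8% for the members and 57.0% for the genes with a named transcript cluster. A match is a description of these letters only.

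The windows of 4 genes higher with BFA show a TGACGTGG match that begins upstream of the start used for the window. In Copb2 the last base of the match is the start itself. The match is in capitals and in the reading direction of the gene. For Sec24d and Sec16b that start lies inside the span listed for the gene, so these 2 matches also lie inside it. They are Sec24d (chr3:123267444-123267503, + strand, match 26 bases before the start), Copb1 (chr7:114254675-114254734, - strand, 28 before, on the opposite strand), Copb2 (chr9:98563698-98563757, + strand, 7 before, on the opposite strand) and the dim Sec16b (chr1:157506726-157506785, + strand, 44 before).
Sec24d: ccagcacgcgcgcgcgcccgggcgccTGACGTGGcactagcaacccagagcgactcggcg
Copb1: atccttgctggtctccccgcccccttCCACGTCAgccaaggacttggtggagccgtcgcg
Copb2: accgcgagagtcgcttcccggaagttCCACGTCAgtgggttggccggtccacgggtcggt
Sec16b: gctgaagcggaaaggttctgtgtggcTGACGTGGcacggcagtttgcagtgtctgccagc
In Sec23a and Scfd1 the match lies 6 and 32 bases after the start.

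For contrast, 250 upstream bases are shown for Sec24d (chr3:123267246-123267495, + strand) and Sec24b (chr3:130060908-130061157, - strand). On the deposited scale Sec24d rose with BFA and Sec24b did not. Sec24a rose as well and held no TGACGTGG in its window, so the contrast describes only the 2 genes shown. Each stretch ends at the start used for the promoter window, which lies inside the span listed for the gene. The motif TGACGTGG is in capitals, as are every CCACG and every match to CCAAT, each read on either strand.
Sec24d upstream: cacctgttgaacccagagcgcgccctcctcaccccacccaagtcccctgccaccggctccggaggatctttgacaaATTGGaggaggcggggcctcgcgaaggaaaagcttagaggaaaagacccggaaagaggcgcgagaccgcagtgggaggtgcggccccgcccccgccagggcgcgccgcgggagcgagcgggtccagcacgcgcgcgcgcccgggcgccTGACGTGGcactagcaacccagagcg
Sec24b upstream: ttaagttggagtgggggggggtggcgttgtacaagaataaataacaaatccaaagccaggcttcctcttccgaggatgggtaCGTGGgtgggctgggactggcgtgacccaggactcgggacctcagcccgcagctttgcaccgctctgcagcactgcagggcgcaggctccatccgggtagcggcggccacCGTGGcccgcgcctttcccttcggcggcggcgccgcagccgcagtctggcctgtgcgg
Sec24d holds TGACGTGG and a reversed CCAAT, while Sec24b holds a reversed CCACG at 2 places and no TGACGTGG.

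Of the p24 adaptors 2 of 3 rose with BFA. Tmed2 read 10.77, 10.85 and 10.71 with BFA, 10.06, 10.11 and 9.93 with EHT-1864, 10.17, 10.07 and 9.96 in hypoxia with DMSO and 10.13, 9.99 and 10.21 in normoxia, and rose with BFA (0.71 ± 0.12, adjusted p = 0.000244). Tmed9 read 9.57, 9.78 and 9.61 with BFA, 8.68, 8.80 and 8.73 with EHT-1864, 9.11, 9.07 and 9.16 in hypoxia with DMSO and 8.96, 8.82 and 8.84 in normoxia, and rose as well (0.54 ± 0.11, adjusted p = 0.00131). Both had their BFA arrays above all others. Tmed10, which forms complexes with them, changed by -0.26 ± 0.11 with BFA (adjusted p = 0.0647), or by 0.58 after scaling to a common interquartile range.

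Every measured SNARE gene rose with BFA, by 0.49 ± 0.12 for Ykt6 up to 1.27 ± 0.22 for Bet1l. Sec22b, the vesicle SNARE of ER to Golgi transport, read 9.28, 9.32 and 9.24 with BFA, 8.004, 7.96 and 7.99 with EHT-1864, 8.32, 8.36 and 8.24 in hypoxia with DMSO and 7.96, 8.12 and 8.04 in normoxia. Bet1, its partner, read 7.11, 7.06 and 7.15 with BFA, 5.995, 6.10 and 5.97 with EHT-1864, 6.13, 6.07 and 6.16 in hypoxia with DMSO and 5.98, 6.10 and 6.16 in normoxia. In both genes the BFA arrays were separate from all others and close together, with changes of 0.97 ± 0.10 (adjusted p = 7.23e-06) for Sec22b and 0.99 ± 0.11 (adjusted p = 8.05e-06) for Bet1. Bet1l, of the intra-Golgi complex, read 6.68, 7.62 and 7.46 with BFA, 5.91, 5.39 and 5.49 with EHT-1864, 5.74, 6.13 and 6.08 in hypoxia with DMSO and 5.72, 5.93 and 5.87 in normoxia (adjusted p = 0.000443 for BFA against DMSO). It was below background on the 3 EHT-1864 arrays. Gosr1, an intra-Golgi SNARE, read 9.69, 9.93 and 9.88 with BFA, 9.37, 9.15 and 9.38 with EHT-1864, 8.85, 8.72 and 8.90 in hypoxia with DMSO and 8.70, 8.66 and 8.80 in normoxia. Gosr1 was raised by both compounds, by 1.01 ± 0.12 with BFA (adjusted p = 1.79e-05) and by 0.48 ± 0.12 with EHT-1864 (adjusted p = 0.00913). Gosr2, which pairs with Bet1 and Sec22b, read 8.45, 8.75 and 8.83 with BFA, 7.88, 7.72 and 7.73 with EHT-1864, 7.94, 8.01 and 8.02 in hypoxia with DMSO and 8.01, 7.94 and 7.83 in normoxia, and its BFA change was 0.69 ± 0.12 (adjusted p = 0.000571). Scfd1, the SM protein that assists syntaxin 5, rose with BFA (0.73 ± 0.14, adjusted p = 0.000766), as did Ykt6, a lipid-anchored SNARE (adjusted p = 0.00435).

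Golgins, the coiled-coil tethers of the Golgi, rose with BFA to a like degree. Golga3 read 8.84, 9.51 and 9.39 with BFA, 8.10, 8.15 and 7.87 with EHT-1864, 8.21, 8.01 and 8.02 in hypoxia with DMSO and 7.83, 7.75 and 7.55 in normoxia. Golga5, a membrane-anchored golgin that binds COPI vesicles, read 9.15, 9.31 and 9.27 with BFA, 7.94, 7.46 and 8.04 with EHT-1864, 8.15, 8.37 and 8.29 in hypoxia with DMSO and 8.03, 7.95 and 8.01 in normoxia. Golgb1, giantin, read 7.60, 7.92 and 7.69 with BFA, 6.01, 5.77 and 5.71 with EHT-1864, 6.87, 6.67 and 6.62 in hypoxia with DMSO and 6.23, 5.98 and 6.09 in normoxia. On all 3 genes the BFA arrays were the highest of the 12, with changes of 1.17 ± 0.17 for Golga3 (adjusted p = 9.57e-05), 0.97 ± 0.15 for Golga5 (adjusted p = 0.00014) and 1.02 ± 0.14 for Golgb1 (adjusted p = 5.05e-05). Golga2, a cis-Golgi golgin that binds p115, read 10.36, 10.68 and 10.61 with BFA, 9.69, 9.48 and 9.63 with EHT-1864, 9.72, 9.54 and 9.59 in hypoxia with DMSO and 9.24, 9.23 and 9.37 in normoxia, a BFA change of 0.94 ± 0.12 (adjusted p = 4.21e-05). Uso1, which encodes p115, read 10.06, 10.20 and 10.05 with BFA, 8.93, 8.96 and 8.91 with EHT-1864, 9.37, 9.43 and 9.31 in hypoxia with DMSO and 9.36, 9.25 and 9.24 in normoxia, a BFA change of 0.73 ± 0.11 (adjusted p = 9.31e-05). The trans-Golgi golgin Golga4 changed by 0.89 ± 0.16 (adjusted p = 0.000493).

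The GRASP proteins, which link Golgi cisternae, had the smallest BFA changes of this class. Gorasp2 read 11.31, 11.66 and 11.61 with BFA, 11.08, 11.01 and 10.92 with EHT-1864, 11.24, 11.16 and 11.25 in hypoxia with DMSO and 11.31, 11.26 and 11.22 in normoxia. Its BFA change of 0.31 ± 0.12 only just passed (adjusted p = 0.0445), and was lost without any of 10 of the 12 arrays, all but BFA array 1 and EHT-1864 array 2 (adjusted p up to 0.123). Gorasp1 read 6.28, 6.39 and 6.29 with BFA, 6.38, 5.55 and 6.30 with EHT-1864, 6.10, 6.20 and 6.33 in hypoxia with DMSO and 6.41, 6.02 and 6.28 in normoxia. Its groups overlapped, it was above background on 1 of the 3 BFA arrays, and its BFA change was 0.11 ± 0.19 (adjusted p = 0.663).

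**Figure D3:**
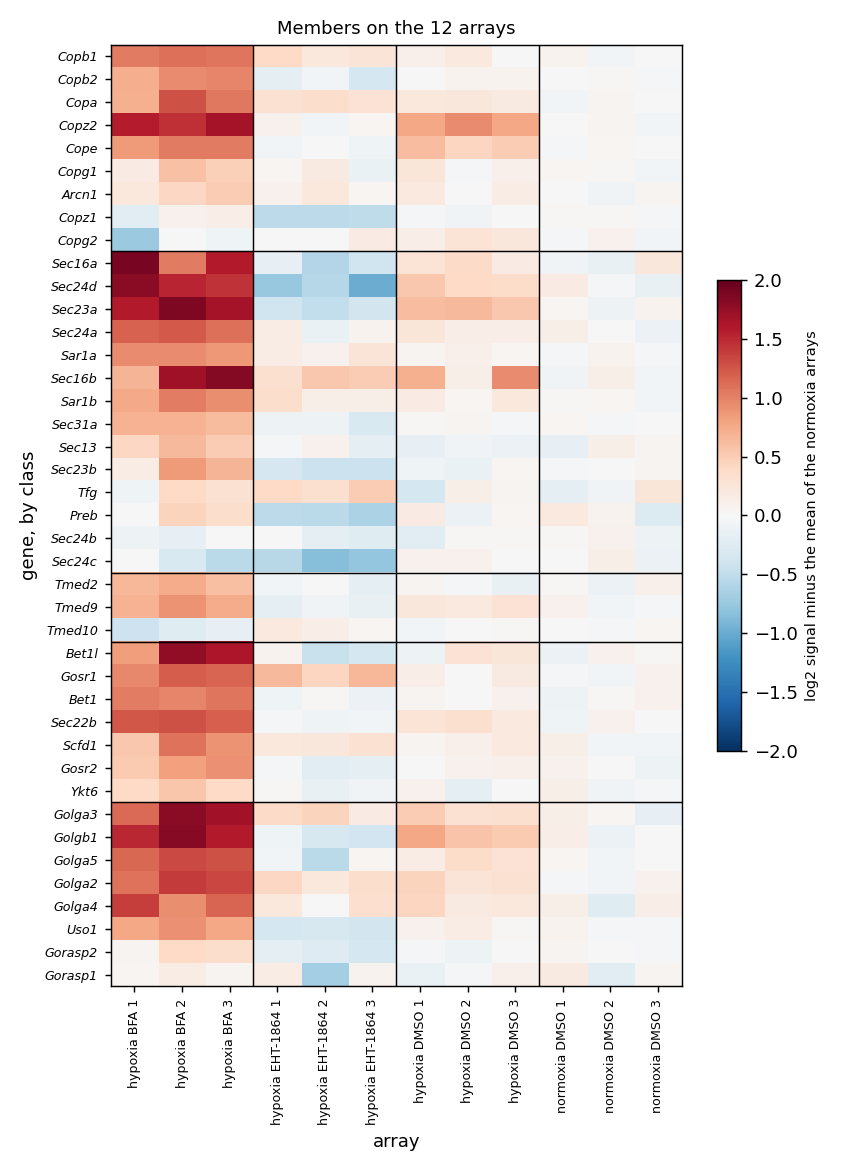
Log2 signal of each measured gene (rows, by class) on each of the 12 arrays (columns, grouped as hypoxia BFA, hypoxia EHT-1864, hypoxia DMSO and normoxia DMSO), minus the mean of its 3 normoxia arrays. Colours run from -2 (blue) to 2 (red), and the 3 BFA arrays are red for most rows, with Copg2, Sec24b, Sec24c and Tmed10 among those that are not.

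With EHT-1864 the members fell about as often as all transcript clusters above background. On the deposited scale, 13 of the 41 genes (31.7%) were lower with EHT-1864 than with DMSO in hypoxia and 1, Gosr1, was higher, against 17.4% of all transcript clusters lower and 13.0% higher. Among the 10991 transcript clusters above background on at least 3 arrays 31.5% were lower and 14.4% higher, so the share of members that fell was close to this background. The median change was -0.15 for the members, -0.14 for these 10991 and 0.06 for all transcript clusters. The falls included 3 COPI genes, 5 COPII genes, 1 p24 adaptor, 1 SNARE and 3 golgins and tethers. This balance depended on the scale of the arrays: with a common median and interquartile range 5 genes were lower and 14 higher, with a median of 0.22, so that 73.7% of the calls were higher instead of 7.14%. Over all transcript clusters that scaling changed the share of calls that were higher to 62.2%, against 42.8% as deposited, and with BFA to 62.1%, against 51.5%. A second quantile normalization gave 10 lower and 2 higher.

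The falls of Sec24d, Sec23a, Golgb1, Copz2 and Sec24c kept their direction and passed the test under all 3 scalings. Sec24d fell most, 2.32-fold (-1.22 ± 0.15, adjusted p = 6.28e-05), and changed by -0.92 after interquartile scaling. Sec23a fell 2.03-fold (-1.02 ± 0.12, adjusted p = 3.89e-05, -0.73 after that scaling). Golgb1 changed by -0.89 ± 0.14 (adjusted p = 0.000373), with 1 of 3 EHT-1864 arrays above background. Copz2 changed by -0.81 ± 0.11 (adjusted p = 0.000184) and Sec24c by -0.78 ± 0.15 (adjusted p = 0.00151). Sec24d and Sec24c encode cargo-selecting subunits of COPII, Sec23a its partner in the inner coat, Copz2 a ζ subunit of COPI and Golgb1 giantin. The paralogs Sec24a, Sec24b and Sec23b were not called with EHT-1864 as deposited.

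The other 8 falls did not pass after interquartile scaling. Cope changed by -0.57 ± 0.11 as deposited (adjusted p = 0.00177) and by -0.02 after the scaling, with 10.83, 11.01 and 11.01 on the BFA arrays, 9.91, 9.96 and 9.89 with EHT-1864, 10.59, 10.40 and 10.48 in hypoxia with DMSO and 9.94, 10.01 and 9.97 in normoxia. Preb changed by -0.60 ± 0.15 (adjusted p = 0.0107) as deposited and by -0.11 after the scaling. Copz1 changed by -0.47 ± 0.12 (adjusted p = 0.00866), and by 0.10 after it, a turn of direction. Uso1 changed by -0.44 ± 0.11 (adjusted p = 0.00764), a tether that no longer passed after it (adjusted p = 0.997). Tmed9 changed by -0.38 ± 0.11 (adjusted p = 0.0199) and turned to 0.04, and Sec22b changed by -0.32 ± 0.10 (adjusted p = 0.0335) and turned to 0.01. Golga5 changed by -0.46 ± 0.15 (adjusted p = 0.0316). Sec16a passed (adjusted p = 0.024), but was below background on all 3 EHT-1864 arrays and above it on 2 of 3 DMSO arrays, so no fold is given. Single arrays decided 4 of these calls. Leaving out any 1 of the 6 EHT-1864 and DMSO arrays ended the Sec22b call (adjusted p up to 0.103). Tmed9 was lost without EHT-1864 array 1 or 3 or DMSO array 1 or 3 (up to 0.0713), Golga5 without EHT-1864 array 2 or DMSO array 2 or 3 (up to 0.124), and Sec16a without EHT-1864 array 2 or 3 or DMSO array 1 or 2 (up to 0.0935).

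**Figure D4:**
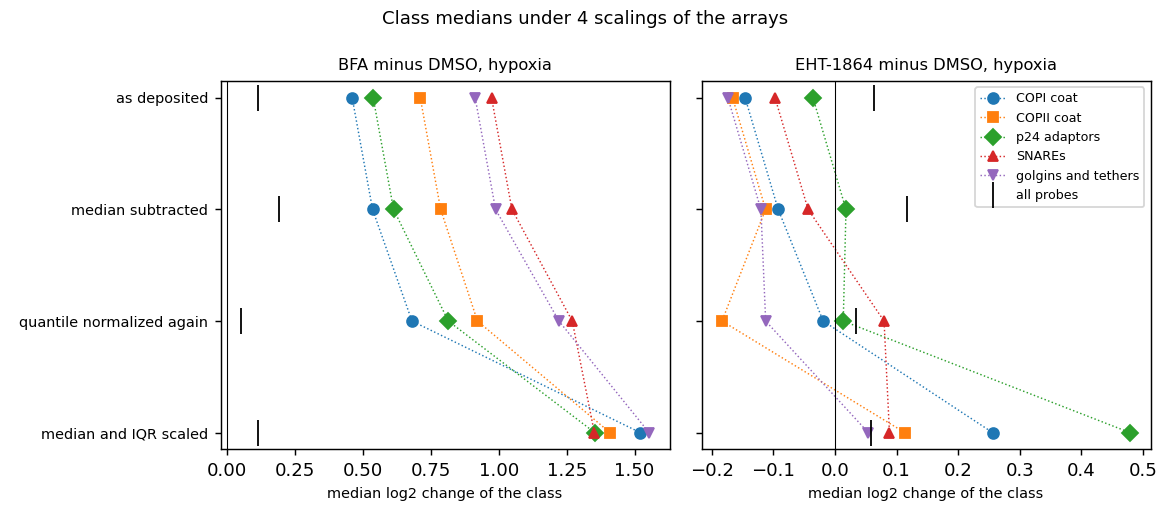
Median log2 change of each class (symbols) and of all transcript clusters (black ticks) under the deposited values, subtraction of the array median, another quantile normalization, and scaling to a common median and interquartile range (IQR), for BFA minus DMSO (left) and EHT-1864 minus DMSO (right). The BFA medians stay above those of all transcript clusters on each scale, while the EHT-1864 medians lie below 0 as deposited and above 0 with the last scaling.

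Most of the machinery was higher with BFA than with EHT-1864. With BFA 35 of the 41 genes were higher than with EHT-1864 and 1 was lower, against 16.9% of all transcript clusters higher and 19.6% lower, and the median difference was 0.84 against 0.06. Of the transcript clusters above background on at least 3 arrays 19.8% were higher and 35.8% lower. After interquartile scaling 36 were higher and the median was 1.25, against 0.04 for all transcript clusters. Of all calls on that scale 54.9% were higher, against 46.4% as deposited. Sec24d was 5.17-fold higher with BFA than with EHT-1864 (2.37 ± 0.15, adjusted p = 9.88e-08) and Sec23a 4.37-fold (2.13 ± 0.12, adjusted p = 4.37e-08). Golgb1 was higher by 1.90 ± 0.14 (adjusted p = 3.11e-07) and Copz2 by 1.54 ± 0.11 (adjusted p = 3.65e-07). Sec16a and Bet1l, below background on all EHT-1864 arrays, were at least 1.85-fold (adjusted p = 7.59e-06) and at least 2.37-fold higher (adjusted p = 6.35e-05), with the background as the level of the dim arrays. Tmed10 was the lower gene (-0.39 ± 0.11, adjusted p = 0.0134), a call lost without EHT-1864 array 1 (adjusted p = 0.0519). The rises of Copg1, Sec24c and the dim Sec16b over EHT-1864 (adjusted p = 0.0477, 0.0291 and 0.0132) also depended on single arrays: Copg1 on all but BFA array 1 and EHT-1864 array 2, Sec24c on BFA array 1 and EHT-1864 arrays 2 and 3, and Sec16b on BFA arrays 2 and 3 (adjusted p up to 0.166, 0.1 and 0.0581). Because the BFA dose is not settled, these differences are not at doses known to match.

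Hypoxia without a compound raised 4 of the 41 genes, Copz2, Sec23a, Golgb1 and Cope, against 2.11% of all transcript clusters higher and 0.563% lower, and 3.86% and 0.974% of those above background on at least 3 arrays. By limma 0 members were lower, as they were at an unadjusted p under 0.05, where 10 were higher, and the median change was 0.10 against -0.03. Copz2 rose 1.78-fold over normoxia (0.83 ± 0.11, adjusted p = 0.000977), and this call held under every alternative run. Sec23a rose 1.52-fold (0.60 ± 0.12, adjusted p = 0.0136), Golgb1 1.54-fold (0.62 ± 0.14, adjusted p = 0.0275) and Cope 1.43-fold (0.52 ± 0.11, adjusted p = 0.0228). In all 4 genes the 3 hypoxia arrays lay above the 3 normoxia arrays. Leaving out any 1 of the 6 DMSO arrays ended the calls of Golgb1 and Cope (highest adjusted p 0.137 for Golgb1 and 0.114 for Cope), and Sec23a was lost without hypoxia DMSO array 1 or 2 or normoxia array 2 (up to 0.0843). After interquartile scaling only Copz2 passed (0.67, adjusted p = 0.0282), and with the replicate number as a block Cope did not. Sec24d changed by 0.44 ± 0.15 without passing (adjusted p = 0.149), and Golga2 by 0.34 ± 0.12 (adjusted p = 0.187). The 3 comparisons with the hypoxia DMSO arrays share those arrays, so a high or low DMSO array would enter all of them.

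Unequal responses within pairs of relatives were tested on the per-array difference between the 2 genes, over 12 pairs, with an exact two-sided permutation test in which 3 against 3 arrays allow no p below 0.1. The largest was between Sec24c and Sec24d, with a difference of changes of -1.49, followed by Sec24a against Sec24b (1.02), Copg1 against Copg2 (0.79), Copz1 against Copz2 (-0.70) and Sec23a against Sec23b (0.48). In these 5 pairs, in Gosr1 against Gosr2 (0.32) and in Sec24a against Sec24d (-0.16) the BFA and DMSO arrays did not overlap, each at exact p = 0.1 and 0.171 adjusted over the pairs. For Sar1a against Sar1b (0.10), Bet1 against Bet1l (-0.28), Golga2 against Golga3 (-0.23) and Gorasp1 against Gorasp2 (-0.20) they overlapped, with exact p from 0.2 to 0.5. The remaining pair, Sec16a and Sec16b, gives no difference, since Sec16b was below background on all arrays, though the adjustment covers it. Probes of different genes differ in response, so only changes, not levels, were compared. The differences are those of the deposited scale. After interquartile scaling the difference moved in 5 of the 12 pairs and stayed the same in 7.

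Neighbouring trafficking genes were followed through 8 lists, 78 of 82 genes measured. With BFA 31 of the 78 were higher and 14 lower (median 0.29), against 26.1% and 24.6% of all transcript clusters and 17.5% and 44.8% of those above background on at least 3 arrays. After interquartile scaling 54 were higher and 4 lower with BFA (0.72), and after a second quantile normalization 44 were higher and 6 lower (0.52). With EHT-1864 3 were higher and 26 (33.3%) lower (-0.23), close to the 31.5% of transcript clusters above background that were lower, and interquartile scaling gave 13 higher and 13 lower (0.05). Hypoxia alone raised 1 of the 78 (1.28%, median 0.11), against 2.11% of all transcript clusters. Other golgins and Golgi structural genes rose with BFA in 9 of 13 cases (median 0.82). Blzf1, a Golgi protein that binds the GRASPs, read 10.76, 11.08 and 10.89 with BFA, 9.16, 9.06 and 9.08 with EHT-1864, 9.15, 8.77 and 9.15 in hypoxia with DMSO and 8.82, 8.89 and 8.78 in normoxia. Its BFA arrays were far above all others (1.89 ± 0.13, adjusted p = 1.92e-07). Tgoln1, a trans-Golgi membrane protein, changed by 1.51 ± 0.15 (adjusted p = 3.87e-06). Among other ER exit site genes 8 of 17 rose and 1 fell (median 0.44), led by Yif1a, an ER to Golgi cycling protein (1.33 ± 0.16, adjusted p = 2.05e-05), and Mia3, which helps large cargo such as collagen into COPII carriers (1.26 ± 0.13, adjusted p = 4.84e-06). Mia3 read 9.997, 9.97 and 9.93 with BFA, 7.82, 7.498 and 7.81 with EHT-1864, 8.64, 8.80 and 8.68 in hypoxia with DMSO and 8.66, 8.61 and 8.37 in normoxia, so it was high with BFA and low with EHT-1864 (-0.996 ± 0.13, adjusted p = 0.000103). Of the tethers and SNAREs that receive vesicles at the ER 5 of 9 rose and 1 fell (median 0.66), with Stx18 (0.83 ± 0.13, adjusted p = 0.000151) and Rint1 (0.79 ± 0.13, adjusted p = 0.000219) ahead. Of the 4 SNARE disassembly genes 2 rose with BFA and 1 fell (median 0.53). The cofactors Napb (1.16 ± 0.16, adjusted p = 7.15e-05) and Napa (0.90 ± 0.12, adjusted p = 5.61e-05) rose. The ATPase gene Nsf fell, with 7.25, 7.47 and 7.39 on the BFA arrays and 7.97, 7.98 and 8.06 in hypoxia with DMSO. After interquartile scaling 2 were higher and 0 lower by limma.

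SNAREs of the trans-Golgi and endosomes were lower with BFA in most cases: 6 of 8 fell and 2 rose (median -0.55), though 3 fell and 2 rose after interquartile scaling (median -0.24). Falls with BFA were common among transcript clusters above background, of which 44.8% were lower, with a median of -0.28. Stx6 read 7.29, 7.88 and 7.82 with BFA, 9.07, 8.74 and 9.01 with EHT-1864, 9.35, 9.24 and 9.39 in hypoxia with DMSO and 9.48, 9.25 and 9.13 in normoxia. All 3 BFA arrays of Stx6 were below every other array (-1.66 ± 0.17, adjusted p = 4.18e-06; -1.06 after that scaling). Vti1a, its partner, fell below background on the BFA arrays, at least 1.06-fold below DMSO (adjusted p = 0.00417). The medians were -0.04 for the TRAPP tethering complexes (2 of 14 higher and 4 lower) and 0.13 for the COG complex (2 of 7 higher). That of the other p24 adaptors was -0.02 (1 of 6 higher and 1 lower). Each lay above the -0.28 of transcript clusters above background, of which 17.5% were higher. The COG median also lay above the 0.11 of all transcript clusters. These balances depended on the scale of the arrays. After interquartile scaling 8 TRAPP genes were higher and 0 lower by limma (median 0.46), and 5 COG genes were higher (0.61). A second quantile normalization gave 5 TRAPP genes higher and 0 lower (0.25), and 4 COG genes higher (0.48). Within these lists, on the deposited scale, Trappc4 rose (0.63 ± 0.14, adjusted p = 0.00257), as did Cog6 (0.88 ± 0.14, adjusted p = 0.00022), Cog3 (0.81 ± 0.14, adjusted p = 0.000342) and Tmed3 (0.73 ± 0.13, adjusted p = 0.000538). Trappc2 (-0.58 ± 0.14, adjusted p = 0.00484) and Tmed4 (-0.88 ± 0.15, adjusted p = 0.000438) fell, and both missed the threshold after interquartile scaling (-0.14 for Trappc2 and -0.07 for Tmed4).

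With EHT-1864 the COG complex, which tethers vesicles within the Golgi, had the lowest median of the lists, with 5 of 7 genes lower (-0.53), or 2 of 7 after interquartile scaling (-0.27), where 17.4% of all transcript clusters and 31.5% of those above background were lower as deposited. Cog7, below background on the EHT-1864 arrays, was at least 1.4-fold lower (adjusted p = 0.000917), and Cog6 changed by -0.72 ± 0.14 (adjusted p = 0.002). Nsf, the ATPase that takes SNARE complexes apart, fell (-1.20 ± 0.11, adjusted p = 8.24e-06), while Napb rose (0.63 ± 0.16, adjusted p = 0.0107). Trappc10 (-1.12 ± 0.13, adjusted p = 6.23e-05), Trappc1 (-1.01 ± 0.11, adjusted p = 2.86e-05), Golim4 (-0.96 ± 0.12, adjusted p = 0.000105), Yipf5 (-0.86 ± 0.11, adjusted p = 0.000115), Sec22a (-0.80 ± 0.14, adjusted p = 0.00118), Scfd2 (-0.70 ± 0.15, adjusted p = 0.00353) and Vamp4 (-0.82 ± 0.12, adjusted p = 0.000312) fell, and all 7 passed again after interquartile scaling. Stx17, below background on the EHT-1864 arrays, was at least 1.41-fold lower (adjusted p = 0.000484). Tmed4 (-0.65 ± 0.15, adjusted p = 0.00679) and Tmed5 (-0.69 ± 0.21, adjusted p = 0.0247) did not pass after that scaling, and Tmed5 was lost without EHT-1864 array 2 or DMSO array 1 or 2 (adjusted p up to 0.103). Golga1 passed but was below background in both groups. Between the compounds 42 of the 78 were higher with BFA than with EHT-1864 and 6 lower (median 0.47). Of all transcript clusters 16.9% were higher and 19.6% lower, and of those above background on at least 3 arrays 19.8% and 35.8%. After interquartile scaling 53 of the 78 were higher and 3 lower (0.66). Highest with BFA among those named were Mia3 (2.25 ± 0.13, adjusted p = 5.84e-08), Blzf1 (1.81 ± 0.13, adjusted p = 3.92e-07) and Golim4 (1.78 ± 0.12, adjusted p = 2.41e-07), and Stx6 was lower (-1.28 ± 0.17, adjusted p = 4.79e-05). Also higher with BFA were Yipf5 (1.65 ± 0.11), Cog6 (1.598 ± 0.14), Sec22a (1.49 ± 0.14), Rint1 (1.32 ± 0.13), Trappc10 (1.06 ± 0.13), Cog3 (1.34 ± 0.14), Tmed3 (0.79 ± 0.13), Napa (1.03 ± 0.12), Trappc4 (1.03 ± 0.14), Nsf (0.56 ± 0.11) and Tmed5 (0.61 ± 0.21). The Tmed5 call was lost without BFA array 2 or 3 or EHT-1864 array 1 or 2 (adjusted p up to 0.148). Vamp3, an endosomal SNARE, differed by 0.76 ± 0.14 (adjusted p = 0.000634). The gene raised by hypoxia alone was Napb (0.69 ± 0.16, adjusted p = 0.0389), above background on 1 of 3 normoxia arrays and lost without any of 6 arrays (EHT-1864 array 1, each hypoxia DMSO array, normoxia arrays 2 and 3; adjusted p up to 0.169).

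**Figure D5:**
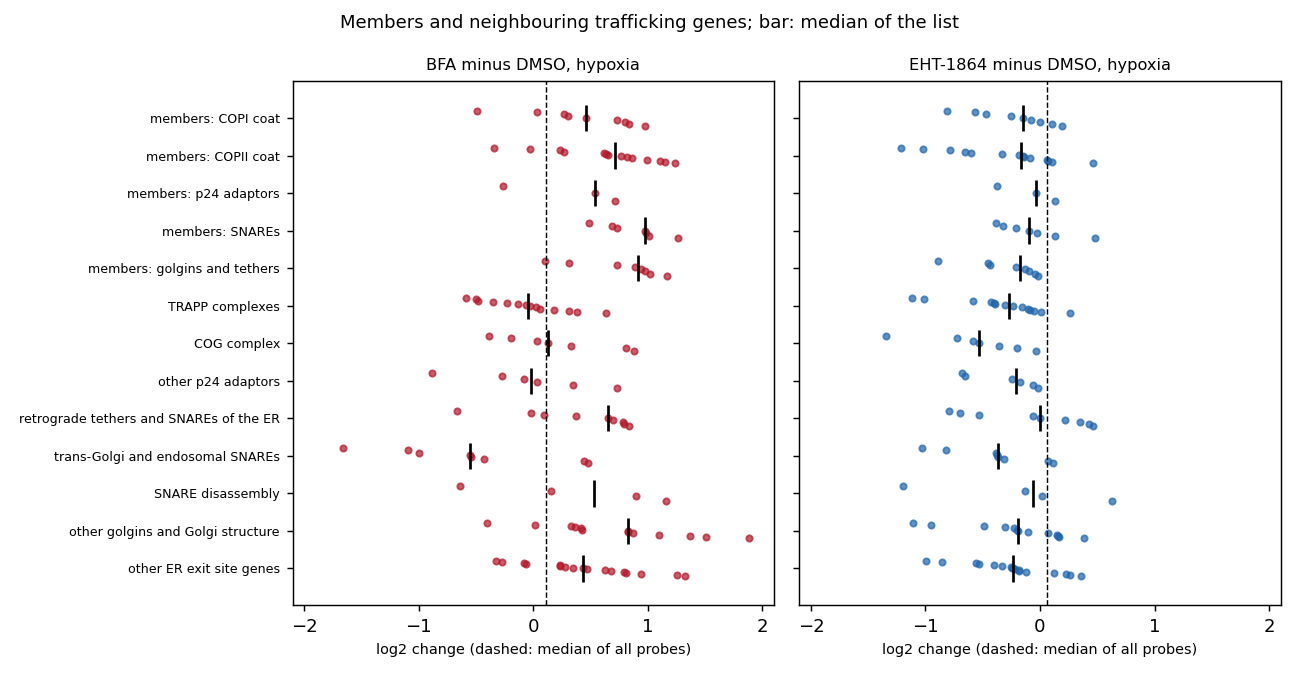
Log2 change of each gene of the 5 member classes and of the 8 neighbouring lists (points) with the list median (black bar), for BFA minus DMSO in hypoxia (left) and EHT-1864 minus DMSO in hypoxia (right), and the median of all transcript clusters (dashed). With BFA the member SNAREs (0.97), golgins (0.91) and other golgins (0.82) lie right of the dashed line and the trans-Golgi SNAREs (-0.55) left of it, on the deposited scale and after interquartile scaling. With EHT-1864 the order of member classes changes with the scale of the arrays.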

How the data were processed

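RNA of 12 mouse cell cultures, 3 per group, was measured on Clarion S arrays. The deposited values are on the log2 scale, made by RMA in Affymetrix Expression Console per the submitters' processing notes. Versions, settings and the genome build are not given in the sources used here. The design text names independent cultures.

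All 22206 transcript clusters that are not controls were fitted with limma 3.58.1 (lmFit and eBayes, R 4.3.3) over 12 arrays and 4 groups, with 8 residual degrees of freedom and no covariate. P-values were Benjamini-Hochberg adjusted over the whole table, and a call needs an adjusted p below 0.05. Background is the 95th percentile of 5222 negative control probes per array. A group below it on all arrays gives only a bound, computed as the bright group's mean against the mean background of the dim arrays. The code was tested on simulated data. Arrays have no read depth, so 3 arrays per group limit the precision. Alternatives were 3 rescalings, a background filter, trended and array-weighted fits, 6-array fits, a replicate block and leaving out each array.

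Genes were named from the platform annotation. The members, lists and tests were chosen with earlier results of these data known. Values on every array are given for the leading called members of each class by compound, all members called in hypoxia or lower in a comparison with DMSO or normoxia, and all paralogs in a pair. From each list the 2 called genes with the largest change per comparison are named. Motifs were searched in RefSeq promoter windows.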

Additional observations from a re-analysis of the deposited data

How the results depend on the processing

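The count of genes higher with BFA than with DMSO stayed within 29 to 33 when single arrays were left out, and that against EHT-1864 within 33 to 35. Scaling to a common median and interquartile range changed most. It gave 14 members higher and 5 lower with EHT-1864, 1 member higher in hypoxia, and among all transcript clusters 238 higher in hypoxia and 2581 lower with EHT-1864. It turned the BFA changes of Copg2 to 0.18, Sec24b to 0.61 and Tmed10 to 0.58, and the EHT-1864 changes of Copz1 to 0.10, Arcn1 to 0.48, Tmed2 to 0.48, Tmed9 to 0.036, Sec22b to 0.012, Ykt6 to 0.36, Golga2 to 0.46 and Gorasp2 to 0.41. The cause was not tested.

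Members lower with BFA than with DMSO numbered 0 after quantile normalization, median subtraction, interquartile scaling and in the 6-array fit, 3 with the background filter or a trend, 2 with array weights and 0 to 2 without single arrays. Members higher with EHT-1864 numbered 2 after quantile normalization, median subtraction, the filter, the trend, the weights, the 6-array fit and the replicate block, and 1 to 2 without single arrays. Members lower with BFA than with EHT-1864 numbered 0 after quantile normalization, interquartile scaling and in the 6-array fit, and 0 to 2 without single arrays. Members higher in hypoxia numbered 1 to 4 without single arrays.

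Of all transcript clusters, those higher in hypoxia numbered 790 with the filter, 766 with a trend, 1265 with weights, 819 in the 6-array fit and 228 to 629 without single arrays. Those lower numbered 457, 455, 993 and 415 in the same order, 65 with the replicate block and 23 to 269 without single arrays. The filter left 2155 higher with BFA than with DMSO. Of the 5799 called higher without it, 1923 were among the 10991 transcript clusters it keeps. Same-numbered arrays did not clearly deviate together (18 pairs, r from -0.18 to 0.17, 1 over 0.1). Differently numbered arrays of different groups had r from -0.16 to 0.17. With 3 arrays per group such correlations cannot exclude a shared batch, and the main fit used no pairing. With the replicate block 30 members were higher and 1 lower with BFA, and 2 higher and 12 lower with EHT-1864. Genes below background have only bounds, and 3 arrays per group leave changes near the threshold open to a single array.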
